A study of Mus musculus with 13 samples.

Results

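The Il10 locus of mouse B cells was examined for STAT3 binding as the RefSeq span of Il10 on mm10 (chromosome 1, 131019845 to 131024970) with 100 kb on each side (130919845 to 131124970). Across the 12 peak lists, 8 of 13513 peaks overlapped this window, and they formed 5 of the 11227 regions obtained by merging peaks that overlapped by at least 1 bp. Interleukin 10 is a cytokine that restrains macrophages, dendritic cells and T cells, and B cells that make it are known as regulatory B cells. Its receptor signals through JAK1, TYK2 and STAT3, and STAT3 is in turn known to drive Il10 in T cells that receive IL-21 or IL-6. Il10 stands in a cluster with the related cytokine genes Il19, Il20 and Il24, and next to Mapkapk2, which encodes a kinase of the p38 pathway.

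STAT3 was mapped by CUT&RUN, in which an antibody (clone 124H6) tethers a nuclease to its target and the released fragments are sequenced. Splenic B cells had been grown for 96 h in IL-4 (12.5 ng/mL) together with anti-CD40 (1 µg/mL), which mimics T cell help, and sorted as IgM+ or IgG1+. IL-4 is known to direct switching to IgG1. For the last 1 h, 400000 cells received anti-CD40 with IL-21 (10 ng/mL) or anti-CD40 with IL-4 (12.5 ng/mL). STAT3 KO cells gave 1 library for each combination of cytokine and isotype, and wild-type (WT) cells gave 2, so that 4 KO and 8 WT libraries were available. The labels give neither the knockout allele, strain and age of the mice nor whether replicates came from separate animals, and the spread between replicates may therefore be technical. The IL-21 arm had no IL-4 recorded in its last 1 h, so that adding IL-21 and withdrawing IL-4 cannot be told apart. Peak lists hold no RNA, and neither the cell type nor the loss of Stat3 could be checked in them.

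All 4 WT libraries with IL-21, of both isotypes, had a peak within Il10, at chromosome 1, 131022698 to 131023418. None of the 4 WT libraries with IL-4 and none of the 4 KO libraries had a peak there. The site stood alone: each of the other 4 regions of the locus was found in a single library. The 4 peaks within the gene had folds of 9.68 to 20.5, and those elsewhere in the locus had folds of 3.79 to 5.37. Fold here is the authors' fold enrichment, the signal at a peak's summit over the background expected there. The bases under the site are not printed, because no genome sequence was used here, and Il10 has no entry among the RefSeq promoter sequences used.

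**Figure D1:**
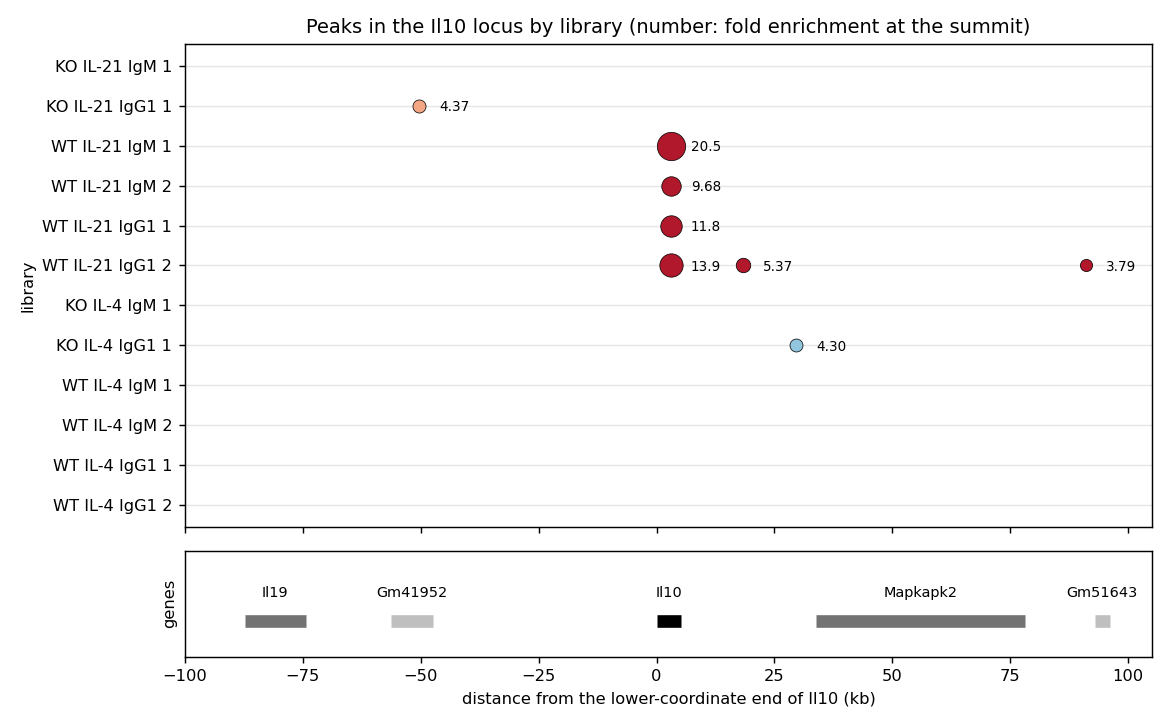
Peaks of the Il10 locus, with libraries down the page and distance from the lower-coordinate end of Il10 in kb along it. Each circle is a peak at its summit, with an area proportional to its fold enrichment, which is printed beside it, and gene spans are drawn underneath (grey, protein-coding; light grey, lncRNA). The 4 WT IL-21 libraries share the site within Il10, and every other peak stands in 1 library.

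The place of the site was nearly the same in each library. The summit lay 3081 and 3083 bp from the lower-coordinate end of Il10 in WT IgM libraries 1 and 2 with IL-21. In WT IgG1 libraries 1 and 2 with IL-21 it lay 3063 and 3068 bp from that end. All 4 summits thus fell within 20 bp of each other (131022908 to 131022928), inside a gene of 5126 bp. Il10 is known to be read toward higher coordinates, which puts its transcription start at the end from which these distances are counted. The gene table used gives no exons, so the summit is not assigned to an exon or an intron.

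The peaks differed more in width than in position. In WT IL-21 cells the peak was 721 bp wide in IgM library 1, 302 bp in IgM library 2, 293 bp in IgG1 library 1 and 372 bp in IgG1 library 2. IgM library 1 had the widest peak, and the other 3 were of similar width. The bases shared by all 4 peaks ran from 131022791 to 131023073, a stretch of 283 bp.

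**Figure D2:**
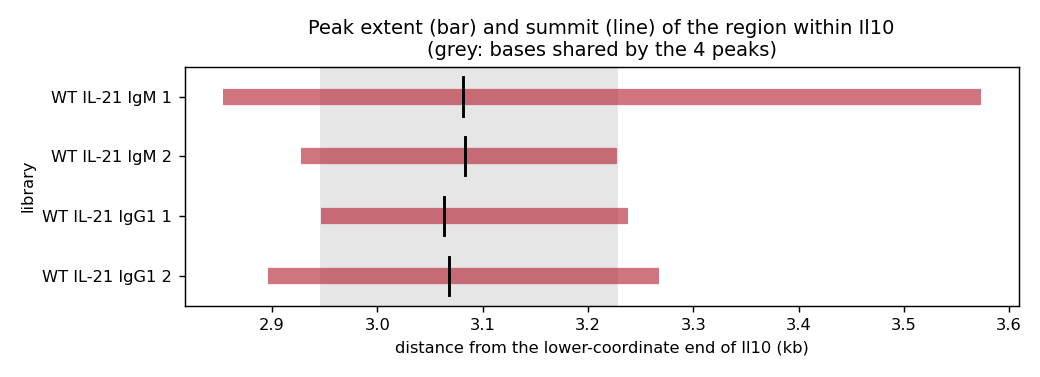
Extent of the peak within Il10 in each of the 4 WT IL-21 libraries (bars), with its summit (black line), against distance from the lower-coordinate end of the gene in kb. The summits fall within 20 bp, and the grey band marks the 283 bp common to the 4 peaks.

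The height of the site varied more between the IgM libraries than between the isotypes. With IL-21 the fold was 20.5 and 9.68 in WT IgM libraries 1 and 2, and 11.8 and 13.9 in WT IgG1 libraries 1 and 2. The IgM pair held both the highest and the lowest of the 4 folds, so that the isotypes overlapped completely. The mean fold was 15.1 ± 7.64 in IgM cells and 12.8 ± 1.52 in IgG1 cells (SD, n = 2 each), a difference of 2.26 that is smaller than the spread within IgM cells. It was -3.15 without IgM library 1, and no test was made because 2 against 2 libraries cannot pass an exact permutation test. Over all 4 libraries the mean fold was 14.0 ± 4.68 (SD, n = 4).

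The authors' −log10 p followed the same order. It was 63.9 and 26.5 in WT IgM libraries 1 and 2 with IL-21, and 31.8 and 40.6 in WT IgG1 libraries 1 and 2 with IL-21. Each value lies far above the lowest that entered any list, 5.00. The −log10 q, which allows for the number of positions tested, was at least 21.7 in each of the 4 libraries.

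The site was among the upper peaks of each list but not at its top. By −log10 p it ranked 63rd of 2034 peaks in WT IgM library 1 with IL-21 (top 3.10%) and 100th of 1171 in IgM library 2 (top 8.54%). In the WT IgG1 libraries with IL-21 it ranked 40th of 865 (top 4.62%) in library 1 and 61st of 1485 (top 4.11%) in library 2. The share of peaks at or above it was thus largest in IgM library 2, where its fold was lowest. Ranked by fold it stood higher, at 33rd, 65th, 19th and 30th place in the same order of libraries.

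Fold and −log10 p together fix the number of fragments piled up at a summit and the background expected there. For this, fold was taken as the pileup plus 1 over the background plus 1. At the Il10 site, WT IL-21 cells had 57 and 34 fragments in IgM libraries 1 and 2 and 36 and 43 in IgG1 libraries 1 and 2. The backgrounds were 1.83 and 2.61 fragments in the IgM libraries and 2.15 and 2.16 in the IgG1 libraries. IgM library 1 thus had both the most fragments and the lowest background, and IgM library 2 the fewest fragments and the highest background. The background equalled the lowest of the library within 0.001 at all 8 peaks of the locus, so that no locally raised background entered these folds.

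**Figure D3:**
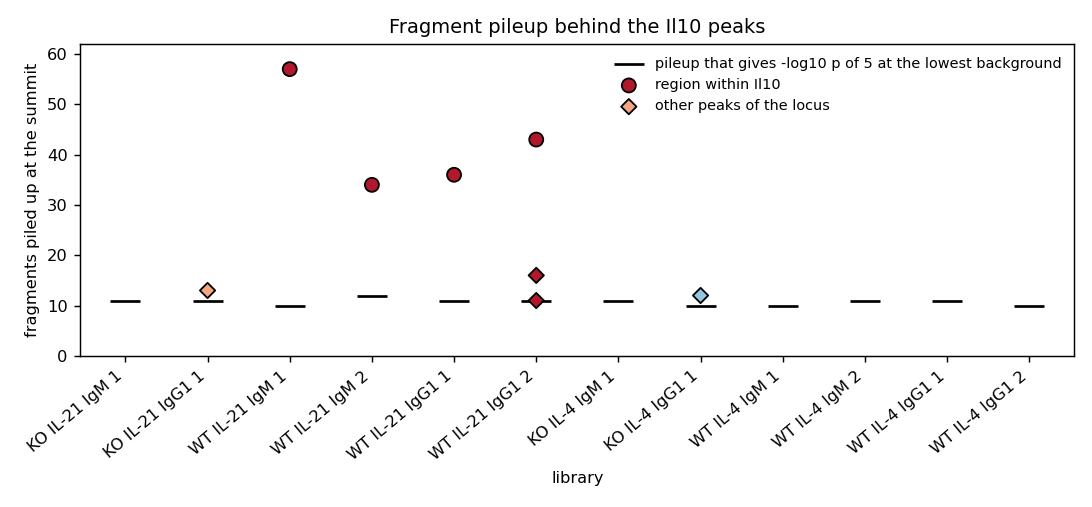
Fragments piled up at the summit of each peak of the Il10 locus (vertical axis) by library. Circles are the site within Il10, diamonds the other peaks, and the horizontal ticks mark the pileup that gives a −log10 p of 5 at the lowest background of that library. The circles lie at 34 to 57 fragments, and the diamonds at 11 to 16, next to the ticks.

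The first comparison asked what IL-21 does at the locus relative to IL-4. The number of peaks in the window was 1 and 1 in WT IgM libraries 1 and 2 with IL-21 and 1 and 3 in the WT IgG1 libraries with IL-21, against 0 in each of the 4 WT libraries with IL-4. The mean difference was 1.5 peaks (two-sided exact permutation test within isotype, p = 0.0556, adjusted over 3 contrasts p = 0.167). How many gene windows split the libraries in this way was not counted. The WT lists held 865 to 2034 peaks with IL-21 and 623 to 1455 with IL-4. With 623 peaks from each list the difference was 1.25 (exact permutation p = 0.0556). The smallest p that this design allows is 0.0556, so the test could not pass 0.05. The site within Il10 was gained, meaning present in each WT library given IL-21 and missing from each one given IL-4, as were 1.31% of the 7461 regions found in WT. Of the 3 regions of the locus found in WT it was the only one gained, and 0 regions of the locus and 0.0% of all were lost. Fisher's exact test gave p = 0.0286, the smallest value for 4 against 4 libraries, for the site and for each of the 98 gained regions. With Benjamini-Hochberg adjustment over the 7461 regions its p was 1, and 0 regions passed, while the 98 were all those with an unadjusted p under 0.05.

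A weaker signal in IL-4 cells may lie below the calling limit. With IL-4, a pileup of 10 fragments in IgM library 1, 11 in IgM library 2, 11 in IgG1 library 1 and 10 in IgG1 library 2 would have reached a −log10 p of 5 at the lowest background of that WT library. The lowest backgrounds themselves were 1.83 to 2.61 fragments in the WT IL-21 libraries and 1.72 to 2.32 in the WT IL-4 libraries. The limits with IL-4 were therefore well below the 34 to 57 fragments seen with IL-21. The nearest peaks to the Il10 summit with IL-4 lay 158 and 161 kb away in WT IgM libraries 1 and 2, and 505 and 3657 kb away in WT IgG1 libraries 1 and 2. The peaks of the IgM pair stood at 1204 and 4154 bp from Fcmr, the gene of an Fc receptor for IgM, and did not overlap each other.

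The comparison with KO cells tested whether the antibody found the site without STAT3. With IL-21, neither KO library had a peak there, against a peak in 4 of 4 WT libraries. Such a pattern was shown by 3.23% of the 4305 regions found in WT IL-21 cells. Fisher's exact test gave p = 0.0667, the smallest value for 2 against 4 libraries, and an adjusted p of 1. With IL-21 a pileup of 11 fragments would have been called at the lowest background of either KO library. The highest fold anywhere in these KO lists was 10.8 in IgM and 9.36 in IgG1 cells. The nearest KO peak with IL-21 was 3252 kb away in IgM cells and 53.4 kb away in IgG1 cells, and with IL-4 it was 337 kb and 26.6 kb away. Presence in the 4 WT IL-21 libraries alone of the 12, as at Il10, was found for 1.23% of WT regions.

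Over the whole window, the test could not decide whether the number of peaks differed between genotypes. The KO libraries had 0 (IL-21, IgM), 1 (IL-21, IgG1), 0 (IL-4, IgM) and 1 peak (IL-4, IgG1) in the window, and the WT libraries had 0 to 3. The mean was 0.5 peaks in KO and 0.75 in WT cells. The mean difference within cytokine and isotype was -0.25 (two-sided exact permutation test, p = 0.778). The smallest p of this design is 0.0123 only without ties. Many of these counts were tied, so that no arrangement of them could pass 0.05. When only peaks whose −log10 q, or whose fold, reached 5 were counted, the mean difference was -0.625 (exact permutation p = 0.111 in both cases). Ties kept these 2 tests from passing 0.05 as well, so no conclusion on genotype is drawn from the counts. Neither KO peak lay within Il10. For isotype, the WT means were 0.5 peaks in IgM and 1 in IgG1 cells (difference -0.5, two-sided exact permutation test within cytokine, p = 1).

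The other 4 peaks of the locus were weak, and all 4 came from IgG1 libraries. In total 2 of the 8 peaks of the locus came from IgM libraries and 6 from IgG1 libraries, whose lists hold 54.4% and 45.6% of all 13513 peaks. A region at 131038129 to 131038507, between Il10 and Mapkapk2, had a peak in WT IgG1 library 2 with IL-21, with its summit 13302 bp beyond the higher-coordinate end of Il10. Its fold was 5.37 with 16 fragments, and it ranked 564th of 1485 peaks. A region at 131110745 to 131110960 in the same library lay 13052 bp beyond Mapkapk2 and 1872 bp from the lncRNA gene Gm51643. Its fold was 3.79 with 11 fragments, which is the fewest that could be called there, and it ranked 1400th of 1485.

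The KO peaks of the locus resembled these. In KO IgG1 cells with IL-21 a peak at 130969486 to 130969752 lay within the lncRNA gene Gm41952, 24041 bp from Il19, which encodes a cytokine of the IL-10 family. Its fold was 4.37 with 13 fragments, at rank 361 of 648. In KO IgG1 cells with IL-4 a peak at 131049339 to 131049568 lay 4193 bp from Mapkapk2. Its fold was 4.30 with 12 fragments, at rank 1022 of 1892. By −log10 p, the share of the list at or above these 4 peaks was 38.0% to 94.3%. All 4 were found in 1 library only, like 90.7% of all 11227 regions.

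How unusual a peak near a gene was depended on the list. Of 21887 protein-coding genes, the share whose span with 100 kb on each side held a peak was 14.2% and 9.36% in the KO IgM and IgG1 libraries with IL-21. In WT cells with IL-21 it was 27.0% in IgM library 1, 17.2% in IgM library 2, 13.0% in IgG1 library 1 and 21.9% in IgG1 library 2. With IL-4 it was 12.4% and 21.6% in the KO IgM and IgG1 libraries, 18.2% and 11.4% in the WT IgM libraries and 8.9% and 6.94% in the WT IgG1 libraries. At least 3 peaks, as in the Il10 window of WT IgG1 library 2 with IL-21, were held by 1.69% of the gene windows of that library. A gained region was held by 2.28% of the gene windows, 499 in all.

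Among the 98 gained regions, Il10 stood in the upper part. By mean fold it was the 13th, and the median of the 98 mean folds was 9.07. With IL-21, its fold was 1.53 and 1.27 times the median of the 98 in WT IgM libraries 1 and 2, and 1.90 and 1.58 times that median in WT IgG1 libraries 1 and 2. It was therefore above the median in every library, and most so in IgG1 library 1. By fold it was 17th and 31st of the 98 in the IgM libraries and 7th and 16th in the IgG1 libraries. IgM library 1, which had the highest fold at Il10, also had the highest fold at 84 of the 98 regions. The whole order of the 4 libraries at Il10 was shared by 16 of the 98, Il10 included. The SD over the 4 libraries was 0.34 of the mean at Il10, against a median of 0.36 over the 98.

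**Figure D4:**
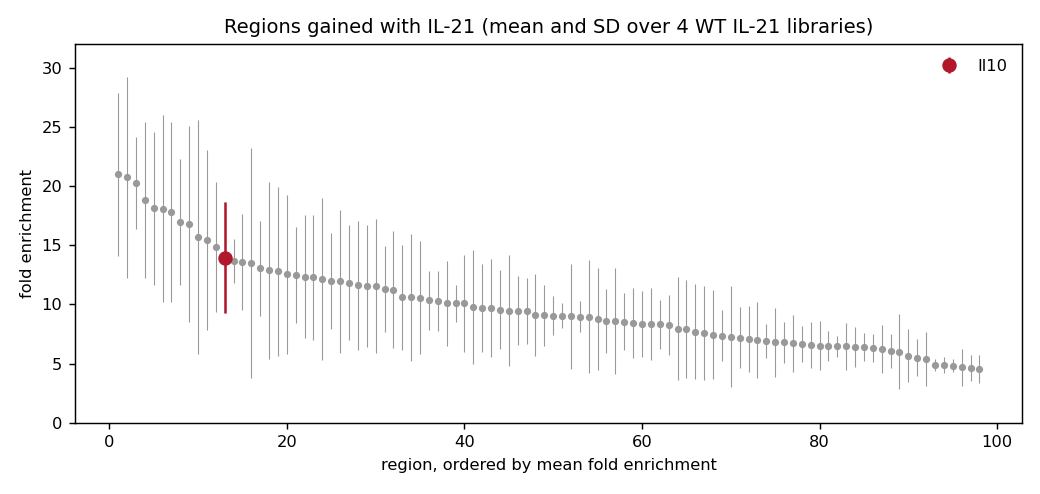
Fold enrichment of the 98 regions gained with IL-21, ordered by their mean over the 4 WT IL-21 libraries (points, with the SD as bars). Il10, in red, is the 13th, at 14.0 ± 4.68.

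Few other repeated sites lay near Il10 on the chromosome. The next region found in at least 2 libraries was 505 kb away toward higher coordinates, within Fam72a, and the nearest toward lower coordinates was 30843 kb away, within Cntnap5b. Chromosome 1 held 4 of the 98 gained regions. The closest to Il10 of the other 3 lay 44759 kb away, within Armc9, and none lay at a higher coordinate than Il10.

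The regions most like the Il10 site were sought among the 92 with a peak in the same 4 libraries and no other. Likeness was the mean absolute difference, over the 4 libraries, in the share of the list at or above the peak. The closest were Serpinb6a, which encodes a serpin protease inhibitor (difference 1.22 percentage points), Sar1a, a GTPase of vesicle export from the endoplasmic reticulum (1.41), and Zfp446, a zinc finger gene (1.67). Next came Stard3nl (1.74) and Phf6 (1.87), which encode a membrane contact protein and a chromatin-associated protein. Their mean folds were 11.6 at Serpinb6a, 9.55 at Sar1a, 13.0 at Zfp446, 13.6 at Stard3nl and 13.6 at Phf6 (n = 4 each). The summit of the strongest peak lay 22380 bp from the gene at Stard3nl and inside the gene span at the other 4, as at Il10.

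Lists of genes tied to Il10 were then read for gained regions, which 1.92% of the 4631 genes with a region in WT had. The lists were chosen with earlier results of these data known, so their counts cannot be read as enrichment over that share. Among receptor and signalling genes of IL-10, 2 of the 7 with a WT region had a gained region. These were Socs3, the feedback inhibitor of STAT3, with 3 gained regions at mean folds of 7.28, 11.6 and 18.1, and Bcl3, an atypical inhibitor of NF-kB, with 1 at 9.69. The receptor gene Il10rb had a single peak in 1 WT IL-21 library, and Stat3 itself had a site with peaks in 4 WT IL-21 and 2 WT IL-4 libraries.

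Among transcription factors and other regulators of Il10, a list chosen in the same way, 3 of the 19 with a WT region had a gained region. These were Crtc2, a coactivator of CREB, Bcl6, a regulator of the germinal centre programme, and Zfp36. Their mean folds were 18.1 ± 7.90 at Crtc2, 15.7 ± 9.90 at Bcl6 and 10.1 ± 4.12 at Zfp36 (SD, n = 4 each). Zfp36 encodes tristetraprolin, a protein that hastens the decay of cytokine mRNAs. Batf, an AP-1 factor that acts on Il10 in T cells, had a site in 4 WT IL-21 and 3 WT IL-4 libraries, and Irf4 had a peak in 1 WT IL-21 library only. Prdm1, the plasma cell regulator, had a peak in 1 WT IL-4 library only. No gene had a gained region among the IL-10 family ligands and receptors (2 with a WT region), the genes next to Il10 (2, Mapkapk2 and Fcmr) or the markers of regulatory B cells (3).

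Of the 5 regions most like Il10 and the gained regions of these lists, 3 contained a whole RefSeq promoter window, those of Serpinb6a, Bcl6 and Zfp36. The windows run from 250 bases before a gene's start to 50 after it. The upstream 250 bases are shown for Serpinb6a, the region most like Il10, and for Zfp36, whose window held the summits of all 4 WT IL-21 peaks. Capitals mark TTCNNNGAA, the pattern preferred by STAT proteins, which reads the same on both strands. The windows are chr13:34002745-34003044 and chr7:28379179-28379478 (GRCm38.p6, minus strand, sequences from RefSeq).
Serpinb6a: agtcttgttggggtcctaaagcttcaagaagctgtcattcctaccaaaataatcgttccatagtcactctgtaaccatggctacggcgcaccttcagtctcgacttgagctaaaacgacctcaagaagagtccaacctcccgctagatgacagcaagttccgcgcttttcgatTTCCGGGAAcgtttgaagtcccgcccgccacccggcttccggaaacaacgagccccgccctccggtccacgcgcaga
Zfp36: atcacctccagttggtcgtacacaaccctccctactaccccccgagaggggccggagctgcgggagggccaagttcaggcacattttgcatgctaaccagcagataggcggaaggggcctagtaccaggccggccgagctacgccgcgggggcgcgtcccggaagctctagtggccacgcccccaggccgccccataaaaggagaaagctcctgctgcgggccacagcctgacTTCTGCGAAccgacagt
The pattern began at base 174 of the Serpinb6a window as TTCCGGGAA, and again at base 271, after the start. It began at base 234 of the Zfp36 window as TTCTGCGAA, and at base 133 of the Bcl6 window as TTCTCAGAA. Of all 32851 RefSeq promoter windows 8.30% held it. The Serpinb6a and Bcl6 windows each held none of the 4 summits of their regions, and 2 of the 4 peaks covered each window whole. In the Il10 locus, 0 of the 5 promoter windows in the table, those of Il19, Mapkapk2 and the lncRNA genes, overlapped a peak.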

How the data were processed

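The 12 deposited peak lists, 1 per library, were used as they stand, and the input library was not used here. The submitters' processing notes name the build mm10, MACS2 2.2.7.1, Bowtie2 2.4.1, deepTools 3.5.1 and Trimmomatic 0.39; what each did, the control used and any read filter were not given in the sources used here. The authors' lists, as deposited, give for a peak its fold enrichment (a ratio to local background), −log10 p and −log10 q, and a score, which is 10 times −log10 p cut to a whole number for all but 14 of the peaks used. Of 13908 deposited peaks, 395 on unplaced or mitochondrial sequence were left out. Depth is not given, and whole pileups were solved from fold and −log10 p within 0.001, with a single solution for at least 99.9% of each library's peaks below a −log10 p of 30. Peaks sharing at least 1 bp were merged into regions, named by the nearest protein-coding span within 50 kb (RefSeq, GRCm38.p6, the assembly behind mm10). Positions are 1-based.

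Presence was compared with Fisher's exact test, two-sided, for every region, with Benjamini-Hochberg adjustment, and peaks per window by exact permutation within strata. All regions of the locus, genes with gained regions on 5 lists, and the 5 regions most like the Il10 site are named. The locus and the lists were chosen with earlier results of these data known. Libraries were not paired by replicate number, except where that number is named as a block. Whether shared numbers mark paired libraries is not known. Region calling, tests and pileup solving were tested on simulated data. Python 3.11.15, NumPy 2.4.6, SciPy 1.17.1, pandas 2.3.3 and Matplotlib 3.10.9 were used.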

Additional observations from a re-analysis of the deposited data

Results flagged for a closer look

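WT IgG1 library 2 with IL-21 had 3 peaks in the Il10 window, against 1 in each of the other 3 WT IL-21 libraries. It stood apart because its gap to the others was the whole range of the 4 counts. With the other 3 counts tied, any different count in this library would have stood apart, so the usual rate of about 1 in 20 sets by chance does not apply. The 2 additional peaks had −log10 q values of 5.51 and 2.13, against 35.6 for the peak within Il10 in the same library. The part of list length in this was not tested: this list held 1485 peaks, against 2034, 1171 and 865 in the other 3.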

How the results depend on the processing

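The site within Il10 stayed gained with IL-21 and without a KO IL-21 peak under each alternative run (1 region each time). The runs took peaks with a −log10 q or a fold of at least 5, 623 peaks from each list, or summits within 250 bp. They also used windows of 50 or 200 kb, or left out each library in turn. The folds, −log10 q, ranks, summits and presence given above fixed these outcomes in advance, so they add no support. The difference in window peaks between IL-21 and IL-4 was 1 to 2 when 1 library was left out (exact permutation p 0.0556 to 0.111). It reached p = 0.0286 when permuted without isotype strata, and was 1 with 200 kb (exact permutation p = 0.333). The KO minus WT difference was -0.667 to 0 and the IgM minus IgG1 difference -1 to 0 with 1 library left out. The KO minus WT difference was -0.625 under either threshold, -0.5 with 200 kb, and -0.375 with 50 kb or equal lists (exact permutation p 0.111 to 0.667), and IgM minus IgG1 was 0 with 200 kb and -0.25 under the others. Without the second WT IgG1 IL-21 library both were 0, and without either KO IL-21 library the first was 0. With 1 WT IL-21 library left out, the IgM minus IgG1 difference in fold was -3.15 to 7.66 and the mean fold 11.8 to 15.4. The mean share of the list at or above the site was then 3.94% to 5.76% (with none left out, 2.85% by fold and 5.09% by −log10 p). All gained regions numbered 98 in the main run. They fell to 75 with a fold of at least 5 and 86 with a −log10 q of at least 5. With 623 peaks from each list they numbered 85, and with summits within 250 bp 84. With 1 WT library left out, which eases the rule for a gained region, they numbered 99 to 215. The highest count came without the first WT IgG1 IL-21 library. Gene windows with a gained region numbered 303 with 50 kb and 879 with 200 kb. Correlations between the deviations of same-numbered replicates were -0.0153 to 0.0198 over 6 pairs of WT groups. As 90.7% of all regions were found in 1 library only, such values cannot tell whether these libraries were paired. With the replicate number as a block the window difference was 1.5 (exact permutation p = 0.125, the smallest possible), as was p for the site. Depth limits what a missing peak shows.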
